A study of Mus musculus with 24 samples.

Results

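Cells repair double-strand DNA breaks through homologous recombination or end joining, and checkpoint kinases hold the cell cycle while they do so. The 41 genes described here were listed by name for these roles, and a gene was kept if its mean raw count over the 24 libraries was at least 10. All 41 listed genes met this rule, from 37.1 counts for Rad51b to 2402 for Parp1, out of 55487 genes in the count table. All 41 were also among the 14535 genes with enough counts to be tested. By role, 20 served homologous recombination and the resection of break ends, 2 belonged to the Fanconi pathway, 9 to end joining, and 10 to checkpoint signalling.

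Homologous recombination copies the missing sequence from the sister chromatid, so it works mainly after DNA has been replicated, and many of its genes are transcribed in step with the cell cycle. Non-homologous end joining ligates the ends without a template and can act in resting cells. The kinases Atm and Atr sense breaks and stalled forks and signal through Chek2 and Chek1. For this reason the genes were set beside a measure of cell division in the same libraries.

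Messenger RNA was sequenced from bone-marrow-derived dendritic cells, which are antigen-presenting cells grown from mouse marrow with GM-CSF, a growth factor for myeloid cells. Controls (WT) were ARPC4 Flox/Flox CD11c-Cre -/- and knockouts (KO) were ARPC4 Flox/Flox CD11c-Cre +/-, so both genotypes carried the floxed alleles of Arpc4, which encodes part of the Arp2/3 complex that starts branched actin filaments. The CD11c promoter drives Cre only once cells express CD11c, and marrow precursors that do not express it keep the gene. Marrow came from male and female mice aged 8 to 10 weeks, cells were replated on days 4 and 7, and only suspended cells were kept, most of them CD11c+ by flow cytometry per the labels. By label, libraries of WT mice 63, 65 and 66 and KO mice 64, 67 and 68 stand for each of days 7, 8, 9 and 10, giving 8 groups of 3 libraries, although the KO numbers do not follow single animals. P-values rest on the spread between libraries within groups, pooled over all 8 groups where all libraries were fitted together. The spread of KO libraries thus enters the p-values of WT comparisons, and that of WT libraries those of KO comparisons. Counts from fits of only the groups compared are given further below. A setting without a mouse leaves out the libraries with that number.

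Arpc4 itself was lower in every KO library than in every WT library of the same day. Its level was 188 to 199 CPM (counts scaled to library size) in WT and 155 to 182 CPM in KO on day 7, and 208 to 242 against 173 to 185 CPM on day 10. Log2 fold changes ran from -0.28 (SE 0.07, adjusted p = 0.22 in edgeR) on day 10 to -0.18 on day 9, and no day passed the adjusted threshold. Which exons the floxed alleles remove was not given in the sources used here, so reads from the rest of the gene may remain in these counts.

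Libraries held 19952047 to 31049798 counts. The Y-linked transcript Ddx3y marked 8 libraries, 1 per group, with 56.5 to 83.9 CPM, and reached no more than 0.136 CPM elsewhere. Xist, the transcript of the inactive X chromosome, was at 0.0401 to 0.427 CPM in these 8 and at 496 to 948 CPM elsewhere. The 8 libraries thus read as male and the others as female, and settings without high Ddx3y keep female libraries only. In WT the high library was mouse 63 on all 4 days, but in KO it was mouse 64, 68, 64 and 67 on days 7 to 10, so the KO mouse numbers do not follow the same animal across days. The group of each library was taken from its label, and results that turn on these libraries are also given without them. Of the marker lists, the dendritic genes Itgax (750 to 1661 CPM) and Cd74 (778 to 4040 CPM) were high in all libraries, while the dendritic-lineage gene Flt3 was at 0.762 to 6.70 CPM. Macrophage genes (Adgre1, 459 to 805 CPM) and neutrophil genes (S100a9, 593 to 2292 CPM) were also present, while T cell, B cell, NK cell and erythroid markers stayed at or under 1.63 CPM, with the exception of Cd3g at up to 9.10 CPM.

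The measure of cell division was a mitotic score, the mean log2 CPM of 25 mitosis genes such as Mki67, Top2a and Cdk1, none of them a member. In WT the score was 3.26, 2.86 and 2.88 on day 7 (mice 63, 65 and 66) and 5.76, 5.40 and 5.79 on day 10. In KO it was 3.46, 4.53 and 3.72 on day 7 (mice 64, 67 and 68) and 6.11, 4.86 and 5.77 on day 10. The score was thus higher on day 10 than on day 7 in both genotypes without overlap, and on day 7 every KO library lay above every WT library. KO libraries of one day differed more from each other (SD 0.561 to 0.843 log2 units) than WT libraries did (SD 0.176 to 0.227). In each of the 4 KO groups the lowest score belonged to the library with high Ddx3y, which was so in 0 of the 4 WT groups.

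From day 7 to day 10, when the score also became higher, most homologous recombination genes and both Fanconi genes rose in WT and KO, while most end joining genes did not pass the test. In WT 23 of 41 members were higher on day 10, where 18.9% of all genes tested were called higher, and 0 were lower, where 18.1% of all genes were called lower (edgeR quasi-likelihood test, Benjamini-Hochberg adjusted p under 0.05). Xrcc4 alone was lower at an unadjusted p under 0.05 in WT. DESeq2 and limma on log2 TPM also called 0 members lower, but Xrcc4 was called lower with the WT mice as a block in limma voom (21.7% of all genes lower), when only the WT libraries of these days were fitted (19.8%) and without mouse 67 (19.6%). In KO 23 members were higher (19.7% of all genes) and 1 was lower (17.1%). The members' median log2 fold change was 0.56 in WT, where that of all genes was -0.02, and 0.51 in KO, where it was 0.00. It was above 0 for 36 members in WT (48.4% of all genes) and for 38 in KO (50.3%). Day 10 lay above day 7 without overlap for 33 members in WT (25% of all genes) and below it for 2 (26.7%), and in KO for 27 (22.4%) and 1 (20.7%). On the log2(TPM + 1) scale, where the median of all genes was itself higher by 0.21 in WT and 0.25 in KO, 34 members were higher and 0 lower in each genotype, where 39.9% of all genes were called higher and 7.37% lower in WT and 44.3% and 7.29% in KO. The KO count of 24 calls (36.8% of all genes) became 15 (21.9%) without mouse 64. Of the risers 22 were shared, Atm passed in WT only and Nbn in KO only, and neither gene's difference between the genotypes' changes passed (Atm -0.25, Nbn 0.08). The shared part of the risers among all genes was not counted.

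**Figure D1:**
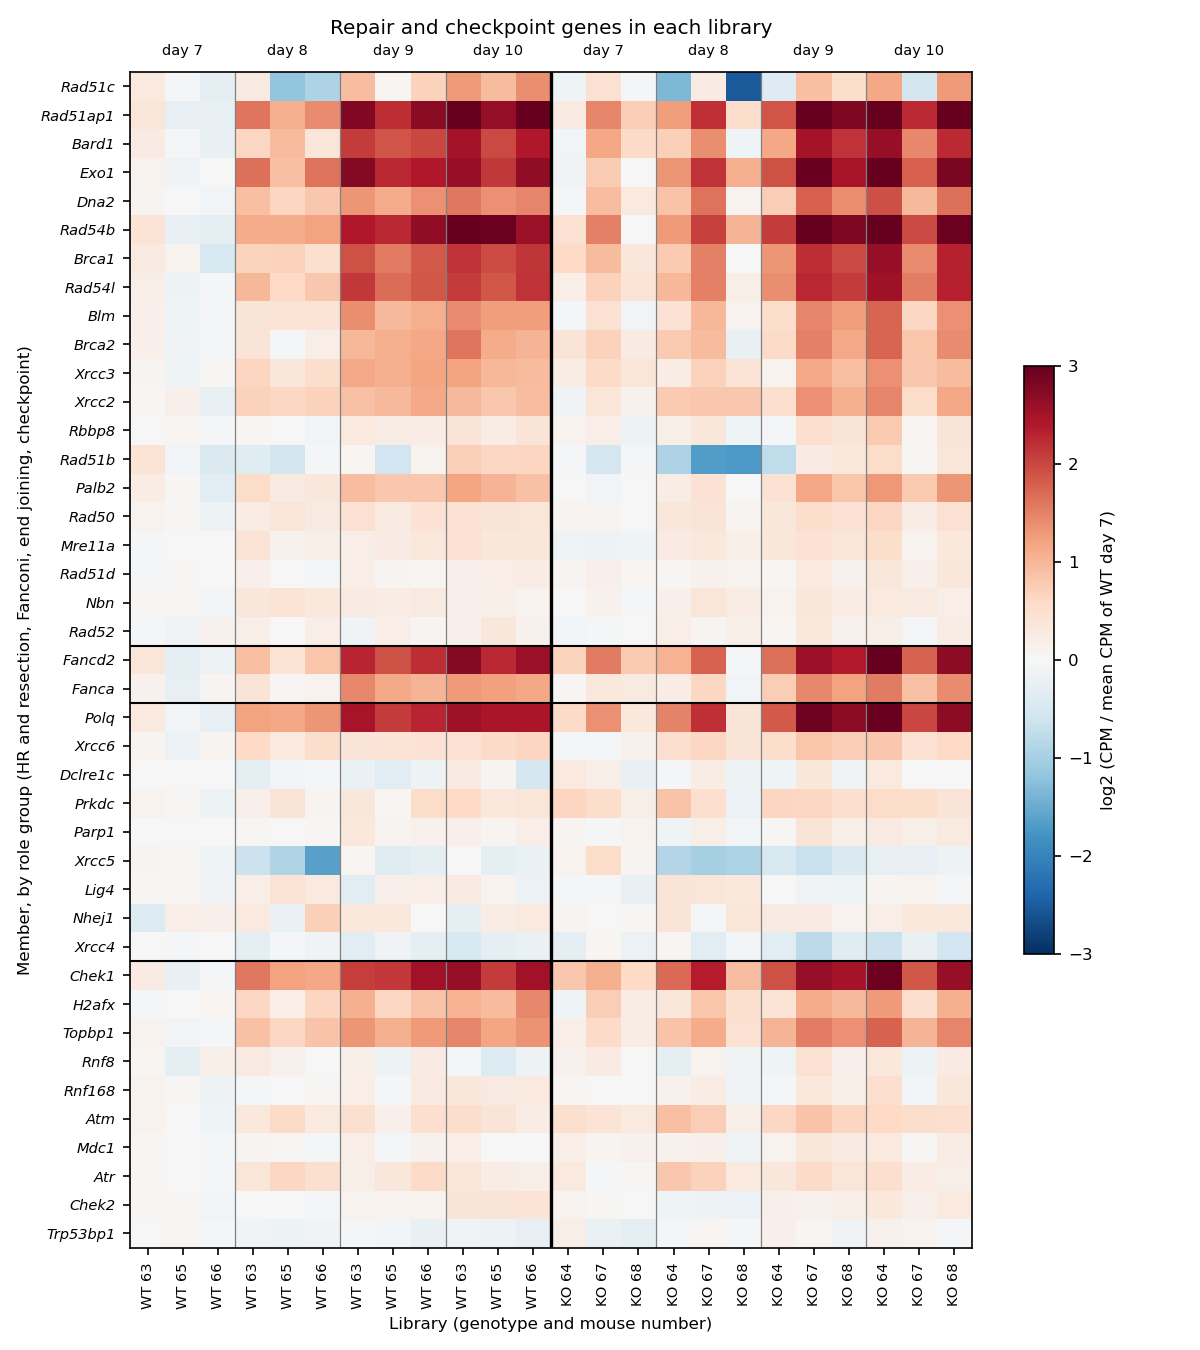
Colour gives log2 of each library's CPM over the mean CPM of WT day 7, for 41 genes (rows, in 4 role groups, ordered by slope on the mitotic score) and 24 libraries (columns). The upper rows of the homologous recombination block, Fancd2, Fanca, Polq, Chek1, H2afx and Topbp1 shift to higher values by day 10 in both genotypes, while most end joining rows stay pale.

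The split by role was uneven. In WT 14 of 20 homologous recombination genes rose, both Fanconi genes, 2 of 9 end joining genes and 5 of 10 checkpoint genes, with median log2 fold changes of 1.13, 1.88, 0.11 and 0.34. In KO the counts were 15, 2, 2 and 4, with medians of 0.95, 1.31, 0.15 and 0.21. Of all genes, 18.9% were called higher in WT and 19.7% in KO, and the end joining counts lay near these shares. Differences between roles were not tested. The mean log2 CPM of the recombination genes was higher on day 10 by 1.25 in WT and 0.985 in KO, and that of the end joining genes by 0.360 and 0.245. The KO value for recombination genes ranged from 0.738 without mouse 64 to 1.33 without mouse 67. In bulk RNA, more cells that express a gene and more RNA per cell cannot be told apart. The markers of other cells moved over the same days: in WT the summed level of the 8 dendritic genes went from 2402 to 2999 CPM up to 5155 to 6988 CPM, that of the 8 neutrophil genes from 1656 to 3239 up to 4004 to 5874 CPM, and that of the 6 macrophage genes from 2462 to 2691 down to 1821 to 1860 CPM. In KO the dendritic sum went from 2697 to 3327 CPM up to 4678 to 7879 CPM, and the neutrophil sums of the days overlapped (2225 to 5803 and 2840 to 4758 CPM). The KO macrophage sum went from 2662 to 3283 CPM down to 1937 to 2301 CPM. The progenitor markers Kit and Cd34 moved by a larger factor than these lists, their WT sum going from between 7.27 and 9.41 CPM to between 31.0 and 31.8 CPM, and their KO sum from between 9.10 and 20.0 CPM to between 31.6 and 71.3 CPM. No gene of these 4 lists was at 0 in any library. Their part in the change was not tested.

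Among genes that act in strand exchange, Rad51ap1, an accessory protein of that step, changed most in WT. It lies at chr6:126923050-126939587 on the minus strand of GRCm38, the build of all gene positions here. Its level was 2.65, 1.73 and 1.75 CPM on day 7 and 18.5, 12.6 and 16.3 CPM on day 10 in WT, and 2.47, 5.66 and 3.39 against 24.4, 9.70 and 16.7 CPM in KO. No day 10 library overlapped a day 7 library in either genotype. It rose by 2.94 log2 units in WT (SE 0.41, edgeR adjusted p = 2.2e-05), a 7.69-fold rise, and by 2.14 in KO (SE 0.39, adjusted p = 0.00030).

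Brca1 (chr11:101488764-101551955, minus strand), the ubiquitin ligase that promotes the resection of break ends, stood at 6.90, 6.18 and 4.15 CPM on day 7 and 26.0, 22.4 and 25.4 CPM on day 10 in WT. In KO it stood at 8.66, 11 and 7.24 CPM and then at 35.1, 15.4 and 28.5 CPM, and groups did not overlap in either genotype. Its rise was 2.10 log2 units in WT (SE 0.32) and 1.55 in KO (SE 0.31). Its partner Bard1 rose by 2.31 and 1.55. Brca2, a mediator of recombination, rose less, by 1.27 in WT (SE 0.27) and 0.94 in KO (SE 0.27), and Palb2, which bridges Brca1 and Brca2, by 1.03 and 1.18.

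The chromatin remodellers of the Rad54 family, which act in strand invasion, both rose. Rad54l was at 6.22, 4.96 and 5.39 CPM on day 7 and 23.6, 20.2 and 24.9 CPM on day 10 in WT, a rise of 2.05 (SE 0.28), and rose by 1.74 (SE 0.28) in KO. Rad54b was scarcer, at 0.963, 0.609 and 0.599 CPM on day 7 in WT, and rose by 2.88 (SE 0.39) in WT and 2.02 (SE 0.36) in KO. Of 5 related proteins that assist strand invasion, Xrcc2 and Xrcc3 rose in both genotypes, by 0.91 (SE 0.21) and 1.05 (SE 0.22) in WT. Rad51b, Rad51c and Rad51d did not pass in either, with 0.66 (SE 0.28), 1.21 (SE 0.50) and 0.20 (SE 0.08) in WT and 0.51, 0.72 and 0.19 in KO. Differences between these genes were not tested. Rad51d stayed between 16.9 and 22.3 CPM in all 24 libraries. Rad52, which anneals single-stranded DNA, also did not pass, with log2 fold changes of 0.20 and 0.16.

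Among nucleases and helicases, Exo1 (chr1:175880581-175913489, plus strand), which resects break ends over long distances, was at 1.57, 1.36 and 1.45 CPM on day 7 and 8.97, 6.31 and 9.20 CPM on day 10 in WT. In KO it was at 1.36, 2.49 and 1.46 CPM and then at 12.3, 5.03 and 10.4 CPM, with no overlap of days in either genotype. The rise was 2.48 in WT (SE 0.37, edgeR adjusted p = 3.4e-05) and 2.39 in KO (SE 0.36, adjusted p = 4.5e-05). Dna2, the other long-range resection nuclease, rose by 1.47 and 1.14, and Blm, the helicase that unwinds ends and dissolves junctions, by 1.31 and 1.19. The Mre11 complex, which starts resection, moved little by comparison: Mre11a rose by 0.38 and 0.47, Rad50 by 0.41 and 0.38, and Nbn had log2 fold changes of 0.15 in WT (not called) and 0.23 in KO (called). Rbbp8, which encodes the Mre11 cofactor CtIP, had 0.33 and 0.39 and passed in neither.

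Both Fanconi genes rose. Fancd2 (chr6:113531682-113597017, plus strand), which is ubiquitinated at stalled forks and crosslinks, was at 3.17, 2.01 and 2.22 CPM on day 7 and 16.7, 11.8 and 14.9 CPM on day 10 in WT. In KO it was at 3.91, 7.29 and 4.29 CPM and then at 20.2, 8.41 and 15.8 CPM. The day 10 libraries lay above the day 7 libraries in both genotypes, and the rise was 2.54 in WT (SE 0.38) and 1.52 in KO (SE 0.36). Fanca, a subunit of the ligase complex that modifies Fancd2, rose by 1.22 and 1.09.

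Of the end joining members, Polq of the alternative route and the classical factor Xrcc6 rose in both genotypes. Polq (chr16:37011786-37095417, plus strand), the polymerase of microhomology-mediated joining, was at 2.69, 2.06 and 1.84 CPM on day 7 and 12.7, 11.9 and 11.9 CPM on day 10 in WT, and at 3.27, 5.70 and 2.74 against 17.2, 8.84 and 14.2 CPM in KO. It rose without overlap of days, by 2.47 in WT (SE 0.37) and 1.78 in KO (SE 0.35). Of the 7 classical members tested beside it and Parp1, only Xrcc6 rose in both genotypes, by 0.56 (SE 0.11) and 0.62 (SE 0.11).

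Xrcc6 and Xrcc5 encode Ku70 and Ku80, the subunits of the ring that binds broken ends, and only Xrcc6 was called higher. The difference between their changes was not tested. Xrcc6 went from 12.9, 10.8 and 12.9 CPM on day 7 to 16.8, 18.2 and 19.2 CPM on day 10 in WT. Xrcc5 went from 4.17, 4.07 and 3.59 CPM to 3.99, 3.21 and 3.45 CPM in WT, and from 4.27, 5.74 and 4.16 CPM to 3.34, 3.34 and 3.54 CPM in KO. The days overlapped for Xrcc5 in WT (log2 fold change -0.15, SE 0.19) but not in KO, where it was the member called lower (-0.47, SE 0.18, edgeR adjusted p = 0.049). That call was lost in 10 of 16 alternatives.

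The ligase pair of classical end joining did not pass in either genotype. Lig4, the DNA ligase that seals the ends, was at 7.47, 7.58 and 6.76 CPM on day 7 and 8.76, 7.76 and 6.45 CPM on day 10 in WT, and its log2 fold change was 0.07 in WT (SE 0.13) and 0.15 in KO (SE 0.13). Its partner Xrcc4 had -0.31 (SE 0.14, edgeR adjusted p = 0.092) and -0.35 (SE 0.14, adjusted p = 0.052), and was called lower in 3 of 16 alternatives in WT and 5 of 16 in KO. Prkdc, the catalytic subunit of the DNA-dependent kinase, had 0.43 and 0.03, and neither passed. Parp1, the break sensor that attaches ADP-ribose, was the most counted member, between 76.0 and 110 CPM in all 24 libraries, with 0.14 and 0.19, and passed in neither. Exons of Xrcc4 and Xrcc6 overlap more abundant genes on the other strand, Tmem167 (6.81 times the mean count of Xrcc4) and Desi1 (2.01 times that of Xrcc6). The same holds for Xrcc3 and Klc1 (28.7 times), Rad54l and Lrrc41 (3.84 times), Fanca and Zfp276 (2.62 times) and Trp53bp1 and Tubgcp4 (1.70 times). Mre11a overlaps the less counted Ankrd49 (0.665 times) and Dclre1c overlaps Suv39h2 (0.140 times) on the other strand, and Rnf8 overlaps Gm28043 (0.182 times) on the same strand. The strand setting of the counting was not given in the sources used here, so these members are less certain.

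Among checkpoint genes, Chek1, Topbp1, H2afx and Chek2 rose in both genotypes. Chek1 (chr9:36708482-36727065, minus strand), the effector kinase downstream of Atr, was at 1.45, 1.03 and 1.16 CPM on day 7 and 7.40, 5.17 and 6.98 CPM on day 10 in WT, and at 2.12, 2.53 and 1.84 against 9.27, 4.44 and 7.40 CPM in KO. No day 10 library overlapped day 7, and the rise was 2.42 in WT (SE 0.33) and 1.70 in KO (SE 0.30). Topbp1, the activator of Atr, rose by 1.33 in WT (SE 0.17) and 1.10 in KO (SE 0.17). Atr itself had 0.25 and 0.21 and did not pass.

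H2afx, the histone variant phosphorylated beside breaks, was at 28.2, 29.0 and 30.5 CPM on day 7 and 60.2, 56.2 and 79.5 CPM on day 10 in WT. It rose by 1.16 in WT (SE 0.22) and 0.67 in KO (SE 0.22), where 1 day 7 library, at 48.6 CPM, lay above 1 day 10 library, at 41.4 CPM. Atm, the kinase that responds to breaks, had 0.39 in WT (SE 0.14, edgeR adjusted p = 0.037) and 0.14 in KO (SE 0.14). Chek2, its effector kinase, changed by a small but even amount, from 22.6, 22.3 and 20.8 CPM to 28.6, 28.8 and 29.0 CPM in WT, a rise of 0.40 (SE 0.06), and by 0.20 (SE 0.06) in KO. The chromatin adaptors Trp53bp1 and Mdc1 and the ubiquitin ligases Rnf8 and Rnf168, which act at break sites, passed in neither genotype, with log2 fold changes between -0.20 and 0.30.

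**Figure D2:**
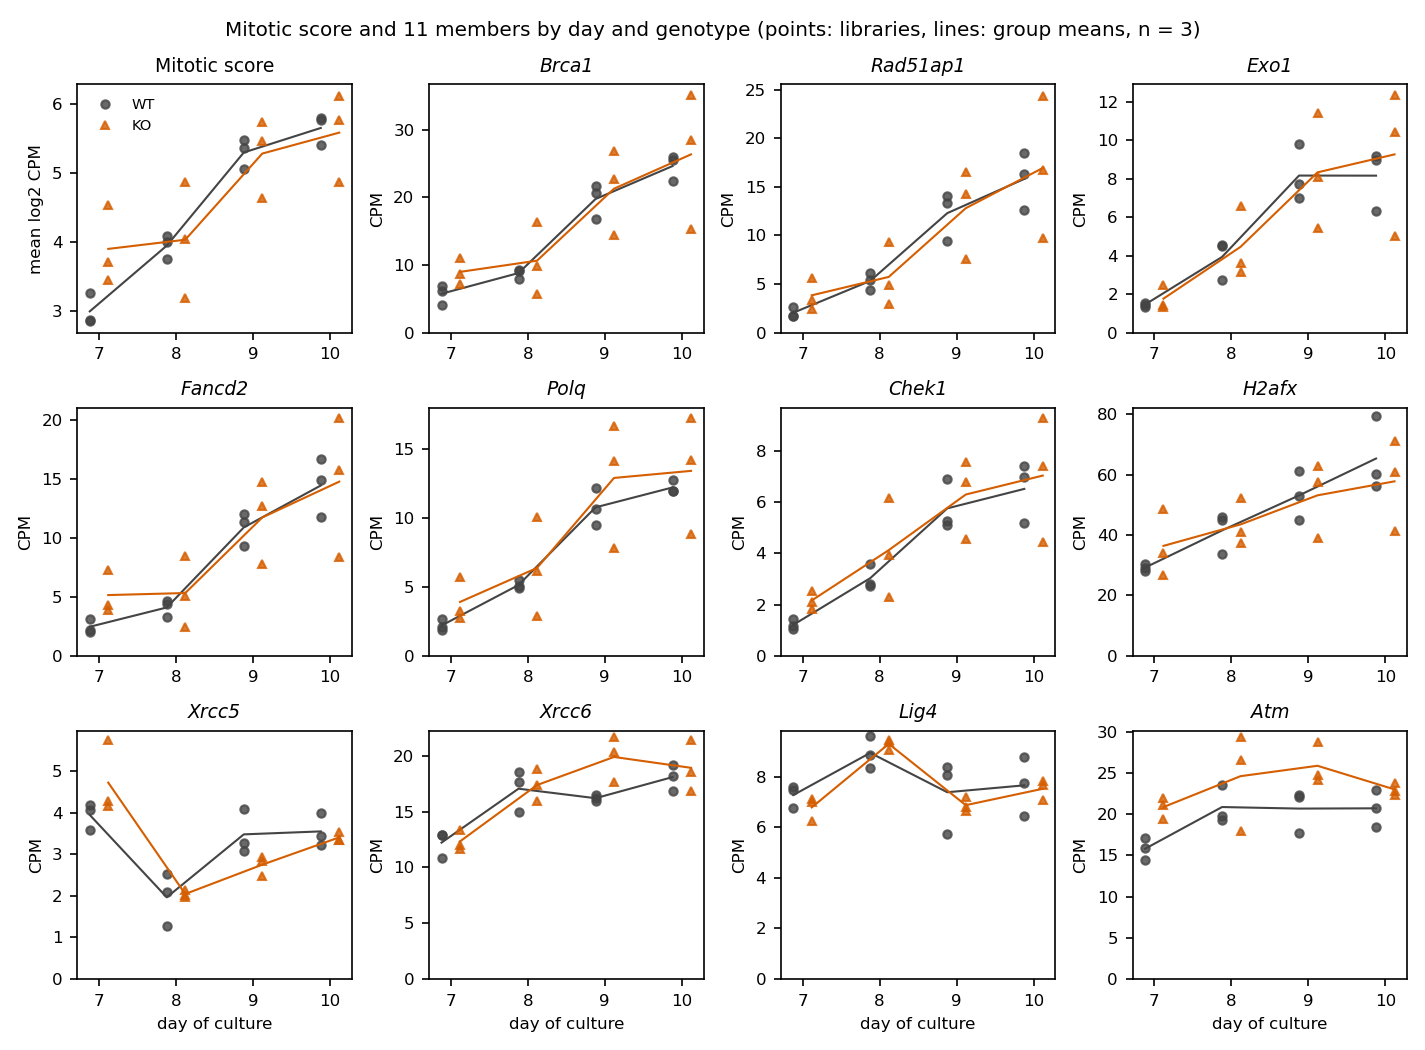
The panels give the mitotic score (mean log2 CPM) and the CPM of 11 members by day of culture, with WT as circles, KO as triangles, 1 point per library and lines through group means of 3. Brca1, Rad51ap1, Exo1, Fancd2, Polq and Chek1 climb with the score and KO libraries fan out, whereas Lig4 stays between 5.74 and 9.61 CPM and Xrcc5 dips on day 8.

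Day 8, the day after replating, set some members apart from the steady rise. In WT 15 members were higher on day 8 than on day 7 (21.5% of all genes) and 1 was lower (22%), and in KO 9 were higher (21.1%) and 3 were lower (20.9%). The log2 fold change was above 0 for 32 members in WT (49.7% of all genes) and 31 in KO (50.1%), and day 8 lay above day 7 without overlap for 23 in WT (29.8%) and 8 in KO (23%). The WT count of 16 calls (43.4% of all genes) was as low as 6 (30.3%) without mouse 66. The sum of the progenitor markers Kit and Cd34 was already at 32.5 to 48.7 CPM in WT and 34.9 to 60.4 CPM in KO on day 8, and its part in these changes was not tested. The largest rises in WT were those of Exo1 (1.43, SE 0.38), Rad51ap1 (1.37), Chek1 (1.32), Polq (1.22) and Rad54b (1.13). Chek1 kept its call without each mouse in turn, while Rad51ap1 and Rad54b lost theirs without mouse 63, 65 or 66, Polq without 65 or 66, and Exo1 without 63 or 66. With the WT mice as a block in limma voom, Rad54b did not pass (adjusted p = 0.068). In KO the largest were those of Exo1 (1.34, SE 0.37), Chek1 (0.94), Xrcc2 (0.66), Atr (0.52) and Topbp1 (0.50). Exo1 and Atr kept their calls in all 16 alternatives, Chek1 lost its call without mouse 64 or 67, Xrcc2 without 68 and Topbp1 without 64. Atr, which did not pass from day 7 to day 10, was thus higher on day 8 in both genotypes, at 17.7, 17.3 and 16.4 CPM on day 7 and 22, 26.3 and 23.8 CPM on day 8 in WT (0.49, SE 0.13).

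Xrcc5 (chr1:72307421-72394952, plus strand) fell on day 8 in both genotypes. It was at 2.52, 2.11 and 1.28 CPM in WT and at 2.13, 1.98 and 2.03 CPM in KO on day 8, below every day 7 library. The log2 fold changes were -1.0 in WT (SE 0.19, edgeR adjusted p = 0.00029) and -1.20 in KO (SE 0.19, adjusted p = 4.0e-05), and both calls held in all 16 alternatives. Rad51b fell in KO, from 1.36, 0.986 and 1.37 CPM to 0.735, 0.436 and 0.423 CPM (-1.21, SE 0.32, edgeR adjusted p = 0.0045), on a mean of 37.1 counts, and lost its call without mouse 68. Its value in WT was -0.31 (SE 0.29), and the difference between the genotypes in this change was not tested. Chek2 was the third member lower in KO on day 8 (-0.20, SE 0.06). That call was lost without mouse 64 or 67, without the libraries with high Ddx3y and in 2 further alternatives, and its direction turned on the TPM scale (0.03).

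From day 8 to day 10, 19 members rose in WT (16.2% of all genes) and 19 in KO (13.6%), and 0 fell in either (14.5% and 11.7%). At an unadjusted p under 0.05 in edgeR, 1 member was lower in WT (Nbn, where 19.7% of all genes were lower) and 3 in KO (Lig4, Atr and Xrcc4, 17.6%). Limma on log2 TPM called 0 lower in both genotypes and DESeq2 called 0 in KO. In WT, however, Nbn was called lower by DESeq2 (16% of all genes lower), with mouse number as a block (14.8%), with the WT mice as a block (17.6%) and in 5 further alternatives, and Dna2 and Rnf8 were called lower with either score as a covariate. In KO, Atr and Xrcc4 were called lower without the libraries with high Ddx3y (13.4%), Xrcc4 without mouse 67, Lig4 without mouse 63 and Dna2 with either score. The largest WT rises were those of Fancd2 (1.81, SE 0.36), Rad54b (1.75), Rad51c (1.66), Bard1 (1.65) and Rad51ap1 (1.57). In KO they were those of Rad51b (1.72, SE 0.31), Rad51c (1.57), Rad51ap1 (1.55), Fancd2 (1.46) and Bard1 (1.38). The WT count (30.7% of all genes) was as low as 9 without mouse 63 (14.5%) or 66 (18.1%). The KO count moved most with the libraries used, from 3 without mouse 68 (8.67% of all genes) to 28 without mouse 67 (34.1%), was 5 without mouse 64 (11.6%), and was 1 when the KO libraries of these days were fitted alone (2.46%).

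The association with the mitotic score was measured between the libraries within groups. Each gene was fitted with 1 level per group plus a slope on the mitotic score, so that differences between days and genotypes could not enter the slope. Of the members 26 had a slope above 0 (17.3% of all genes) and 0 had a slope below 0 (15.6%), and at an unadjusted p under 0.05 the counts were 28 (21.6%) and 0 (20.5%). DESeq2 gave 26 above 0 (17.4% of all genes) and 0 below (16.2%), and limma on log2 TPM 32 (36.3%) and 0 (7.09%). By role, 15 of 20 recombination genes, 2 of 2 Fanconi genes, 3 of 9 end joining genes and 6 of 10 checkpoint genes passed, with median slopes of 0.51, 0.72, 0.12 and 0.21 against 0.00 over all genes. A slope of 1 means that a gene doubled when the mitosis genes doubled on average.

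The steepest slopes were those of Rad51c (1.31, SE 0.18), Rad51ap1 (1.05, SE 0.06), Fancd2 (0.98, SE 0.06), Bard1 (0.95, SE 0.10) and Polq (0.90, SE 0.08). Exo1 (0.88, SE 0.09), Dna2 (0.83, SE 0.04), Rad54b (0.81, SE 0.12), Brca1 (0.80, SE 0.08), Rad54l (0.75, SE 0.05) and Chek1 (0.74, SE 0.09) followed. Rad51c had the steepest slope on a mean of 43.2 counts, yet its change from day 7 to day 10 did not pass in WT (1.21, SE 0.50, edgeR adjusted p = 0.063). Its day 8 levels in KO were 0.478, 1.44 and 0.211 CPM, in the order of the mitotic scores of those libraries (4.04, 4.87 and 3.19).

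Slopes near 0 belonged to Lig4 (-0.04, SE 0.08), Trp53bp1 (-0.04, SE 0.06), Chek2 (0.03, SE 0.04), Rad52 (0.04, SE 0.07), Nbn (0.08, SE 0.05), Atr (0.10, SE 0.08) and Xrcc5 (0.10, SE 0.11). Xrcc4 and Nhej1, partners of Lig4, had -0.15 and -0.14 and did not pass. Of the 23 risers in each genotype, 20 also had a called slope above 0, where 17.3% of all genes had one. The share among all genes that rose was not counted, so this overlap is not particular to the members on these values. Chek2 rose from day 7 to day 10 in both genotypes with a slope of 0.03 that did not pass. Members and score share each library and its scaling, and the slope rests mostly on KO libraries, whose scores differ more. It was called for 15 members without mouse 67 (6.95% of all genes) and for 14 without the 8 libraries with high Ddx3y (9.37%). In each of the 4 KO groups the library with high Ddx3y had the lowest score, so cell division is not isolated there. The part of other differences between these libraries was not tested.

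**Figure D3:**
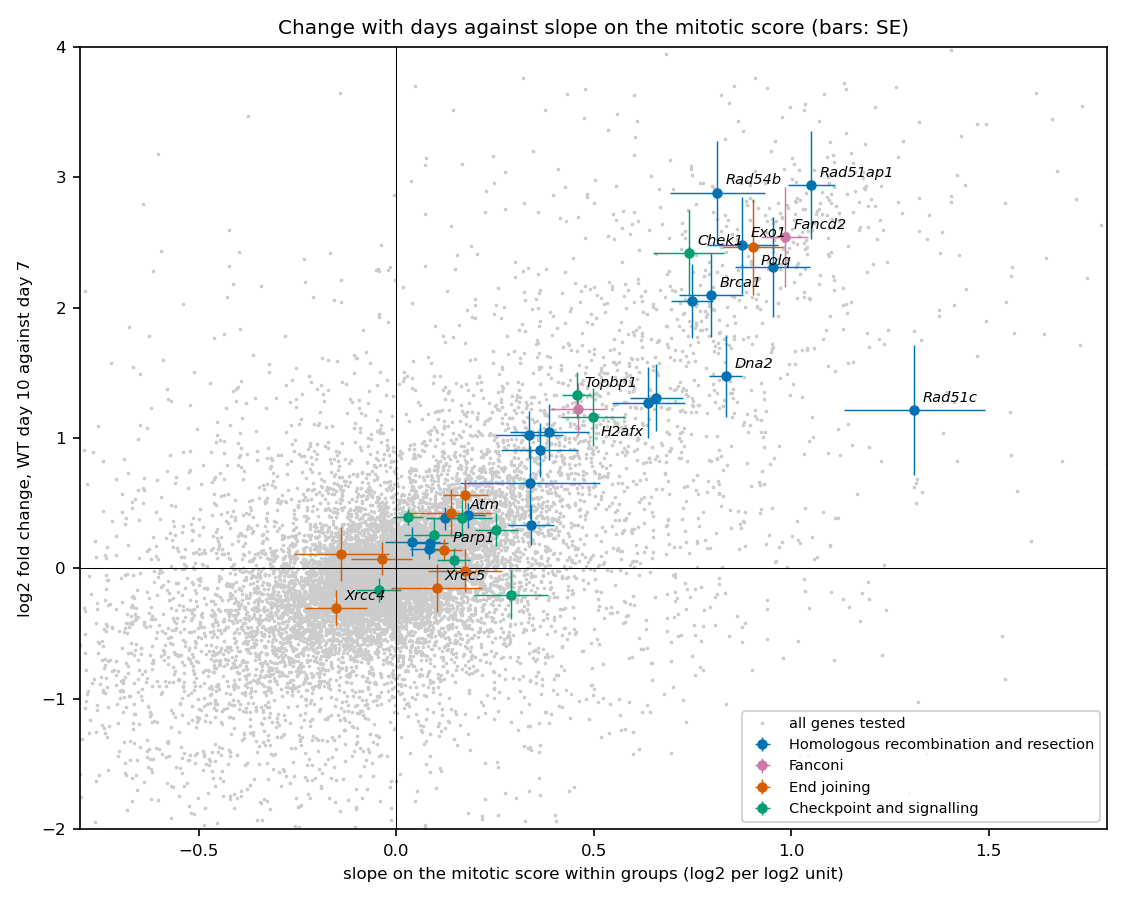
The horizontal axis gives the slope on the mitotic score within groups and the vertical axis the log2 fold change of WT day 10 against day 7, with SE bars, for 41 members by role, with the tested genes that lie within the axes in grey. Rad51ap1, Fancd2, Exo1 and Polq sit at the upper right, most end joining members sit near the origin, and Rad51c lies to the right of the other members.

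With the score as a covariate, most calls from day 7 to day 10 were lost, whereas those for KO day 8 against day 7 went from 12 (42% of all genes) to 20 (48.4%). For WT day 10 against day 7, 0 members were higher (7.18% of all genes) and 4 were lower (6.3%), namely Dna2 (-0.74, SE 0.13), Rad51c (-2.25, SE 0.54), Rbbp8 (-0.58) and Rnf8 (-0.97), and at an unadjusted p under 0.05, 1 member was higher (14% of all genes) and 6 were lower (13.2%). In KO, 4 were higher (10.1%) and 1 was lower (8.71%): Exo1 (0.88, SE 0.22), Palb2 (0.59), Rad54l (0.44), Topbp1 (0.32) and, lower, Rad51c (-1.60). At an unadjusted p under 0.05 the KO counts were 8 higher (16.4% of all genes) and 4 lower (15.2%). The members' median log2 fold change became -0.03 in WT and 0.05 in KO. An S phase score of 22 replication genes left 0 members higher (7.33% of all genes) and 4 lower (6.32%) in WT, and 0 higher (9.07%) and 2 lower (8.04%) in KO. WT days 7 and 10 differed by 2.65 units of the score while WT libraries of one day had an SD of no more than 0.227, so the adjusted values extend the slope beyond the range in which it was measured.

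Promoters of members that rose together were set beside one another, because E2F factors, which bind near the starts of replication genes, and the CHR and CCAAT elements of mitotic promoters are known to time transcription in the cell cycle. RefSeq promoters on GRCm38.p6, from 250 bases before to 50 after the start, were found for 31 of the 41 members by symbol. The E2F letters searched on both strands were TTTCCCGC, TTTCGCGC, TTTGGCGC and TTTGCCGC, the CHR letters TTTGAA and the CCAAT letters CCAAT, and a gene counted if any of its listed starts held them. CHR and CCAAT letters overlapped in 1 member, Rnf8. The E2F letters were in 7 of 31 members (22.6%), against 2.6% of 27025 genes with a promoter and 4.64% of the 10521 of these that were tested here. They were in 5 of 16 members that rose from day 7 to day 10 in both genotypes (31.2%) and in 2 of 14 that rose in neither (14.3%). CHR letters were in 12.9% of members (14.8% of tested genes), in 12.5% of those 16 risers and in 14.3% of the 14 others. CCAAT letters were in 51.6% of members (42.8% of tested genes), in 62.5% of the risers and in 35.7% of the others.

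The 5 risers with E2F letters are shown 5′ to 3′ on the strand of the gene, with matches to any of the motifs in capitals, followed by Mdc1 and Rad51c, which hold E2F letters and rose in neither genotype. Rad51c has 2 listed starts, both with E2F letters, and the first is shown.
Bard1, chr1:71102923-71103222, minus strand: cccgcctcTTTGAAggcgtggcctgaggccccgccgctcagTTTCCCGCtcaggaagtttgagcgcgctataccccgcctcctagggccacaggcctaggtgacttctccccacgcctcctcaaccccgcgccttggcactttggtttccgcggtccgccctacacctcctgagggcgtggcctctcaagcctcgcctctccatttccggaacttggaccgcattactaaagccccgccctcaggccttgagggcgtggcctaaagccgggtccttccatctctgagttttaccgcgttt
Brca2, chr5:150522371-150522670, plus strand: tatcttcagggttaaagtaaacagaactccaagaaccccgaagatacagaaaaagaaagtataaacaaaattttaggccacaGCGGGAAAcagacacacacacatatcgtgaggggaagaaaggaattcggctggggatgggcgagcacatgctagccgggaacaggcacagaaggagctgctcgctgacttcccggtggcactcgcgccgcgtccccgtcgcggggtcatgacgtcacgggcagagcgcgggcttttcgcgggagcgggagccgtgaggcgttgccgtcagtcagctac
Topbp1, chr9:103305077-103305376, plus strand: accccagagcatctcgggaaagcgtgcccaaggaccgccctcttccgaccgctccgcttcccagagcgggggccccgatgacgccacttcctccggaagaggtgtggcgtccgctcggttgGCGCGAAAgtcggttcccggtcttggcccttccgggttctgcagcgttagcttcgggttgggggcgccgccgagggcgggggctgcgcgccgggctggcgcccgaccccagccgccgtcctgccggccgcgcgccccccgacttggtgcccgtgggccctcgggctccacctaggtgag
Chek2, chr5:110839733-110840032, plus strand: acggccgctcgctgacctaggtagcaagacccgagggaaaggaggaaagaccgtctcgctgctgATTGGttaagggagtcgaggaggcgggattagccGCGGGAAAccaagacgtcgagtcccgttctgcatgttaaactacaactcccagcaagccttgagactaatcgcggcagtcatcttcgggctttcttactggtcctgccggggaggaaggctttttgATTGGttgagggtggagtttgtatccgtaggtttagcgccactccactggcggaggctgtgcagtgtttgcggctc
Xrcc6, chr15:82016119-82016418, plus strand: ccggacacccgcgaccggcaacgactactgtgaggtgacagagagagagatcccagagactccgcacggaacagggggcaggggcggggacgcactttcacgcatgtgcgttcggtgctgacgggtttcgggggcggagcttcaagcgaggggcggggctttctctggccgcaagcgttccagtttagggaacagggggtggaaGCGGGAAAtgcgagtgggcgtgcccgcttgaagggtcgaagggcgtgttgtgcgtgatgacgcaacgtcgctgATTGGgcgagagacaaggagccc
Mdc1, chr17:35841248-35841547, plus strand: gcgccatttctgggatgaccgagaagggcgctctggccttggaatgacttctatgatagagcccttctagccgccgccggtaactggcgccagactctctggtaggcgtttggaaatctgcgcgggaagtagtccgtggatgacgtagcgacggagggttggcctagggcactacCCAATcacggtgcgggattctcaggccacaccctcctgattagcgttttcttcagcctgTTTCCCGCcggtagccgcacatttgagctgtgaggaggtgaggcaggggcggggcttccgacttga
Rad51c, chr11:87404457-87404756, minus strand: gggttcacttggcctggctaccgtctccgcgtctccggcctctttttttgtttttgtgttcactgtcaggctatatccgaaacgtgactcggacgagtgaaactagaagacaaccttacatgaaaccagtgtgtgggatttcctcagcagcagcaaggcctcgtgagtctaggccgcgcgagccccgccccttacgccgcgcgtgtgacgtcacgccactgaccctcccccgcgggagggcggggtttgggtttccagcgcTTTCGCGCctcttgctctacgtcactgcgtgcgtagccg
A match is a description of letters in this window. The 5 risers ranged in WT rise from 0.40 for Chek2 to 2.31 for Bard1, and in slope from 0.03 for Chek2 to 0.95 for Bard1. The letters thus stood before members with steep slopes, before Xrcc6 (0.17) and Mdc1 (0.14), and before Chek2, whose slope did not pass. Rad51c, with the steepest slope (1.31), held them and did not pass from day 7 to day 10. Exo1, Fancd2 and Rad54b, among the strongest risers, were not matched to a promoter, and Rad51ap1, Polq and Chek1 had no E2F letters in this window.

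KO and WT were compared on each day to see whether loss of Arpc4 moved the repair genes. On day 7, 0 of 41 members passed in edgeR, where 0.832% of all genes were called higher and 0.619% lower, and DESeq2 and limma on log2 TPM also called 0. At an unadjusted p under 0.05, 5 members were higher (8.02% of all genes) and 0 were lower (7.66%): Fancd2, Chek1, Polq, Prkdc and Atm. The log2 fold change was above 0 for 34 of 41 members (47.1% of all genes), with a median of 0.12 against -0.01. Without mouse 66, 0 members were higher at an unadjusted p under 0.05 (6.49% of all genes). Without mouse 64 there were 12 higher (11.5%) and 1 lower (6.99%) with a median of 0.23, and without the libraries with high Ddx3y 15 higher (10.5%) and 1 lower (8.42%) with a median of 0.28. KO lay above WT without overlap for 12 members (11.9% of all genes) and below it for 1 (14.2%).

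Fancd2 had the largest difference on day 7, at 3.91, 7.29 and 4.29 CPM in KO against 3.17, 2.01 and 2.22 CPM in WT. Every KO library was above every WT library, and KO exceeded WT by 1.05 log2 units (SE 0.39, edgeR adjusted p = 0.19). It passed, at 1.45 (edgeR adjusted p = 0.035), without the libraries with high Ddx3y. Chek1 was at 2.12, 2.53 and 1.84 CPM against 1.45, 1.03 and 1.16 CPM, again without overlap (0.83, SE 0.35, edgeR adjusted p = 0.24). Mre11a was the 1 member below WT without overlap, at 21, 20.7 and 21.1 CPM against 22.6, 23.1 and 23.4 CPM (-0.14). The mitotic score differed in the same direction on that day, by 0.90, and the 25 mitosis genes had a median log2 fold change of 1.00. Of these genes 0 were called (0.832% of all genes higher and 0.619% lower), and 22 were higher at an unadjusted p under 0.05 (8.02%). Of the marker sums on that day, those of neutrophil genes were at 2225 to 5803 CPM in KO and 1656 to 3239 CPM in WT, and those of macrophage genes at 2662 to 3283 and 2462 to 2691 CPM. The progenitor sums were at 9.10 to 20.0 CPM in KO and 7.27 to 9.41 CPM in WT, and the mast cell or basophil sums at 67.3 to 214 and 59.5 to 74.9 CPM. The ranges overlapped for each of these 4 lists, and their part in the differences was not tested.

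With the mitotic score as a covariate, the day 7 values of Fancd2, Chek1, Rad51ap1 and Polq came closer to 0, those of the last pair ending just below it, and those of Dna2, Blm and Exo1 also turned from above 0 to below it. The log2 fold change of KO against WT became 0.13 for Fancd2 (SE 0.12), 0.16 for Chek1 (SE 0.20), -0.11 for Rad51ap1 (SE 0.13) and -0.03 for Polq (SE 0.16). Those of Prkdc (0.34, SE 0.20) and Atm (0.26, SE 0.15) kept more of their size and did not pass. Of 41 members 12 were then above 0 (47.9% of all genes), with a median of -0.08, and 18 of 20 recombination genes were below 0, with a median of -0.22. Exo1 had -0.56 (SE 0.21) and did not pass. Dna2 (-0.37, SE 0.08, edgeR adjusted p = 0.015) and Blm (-0.49, SE 0.13, adjusted p = 0.037) were called lower (1.97% of all genes), and 0 were called higher (2.04%). At an unadjusted p under 0.05, 7 were lower (10.4%) and 0 higher (9.84%). With the S phase score in its place 0 members passed (1.95% of all genes higher and 1.83% lower), and 6 were lower (9.96%) and 0 higher (9.68%) at an unadjusted p under 0.05.

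**Figure D4:**
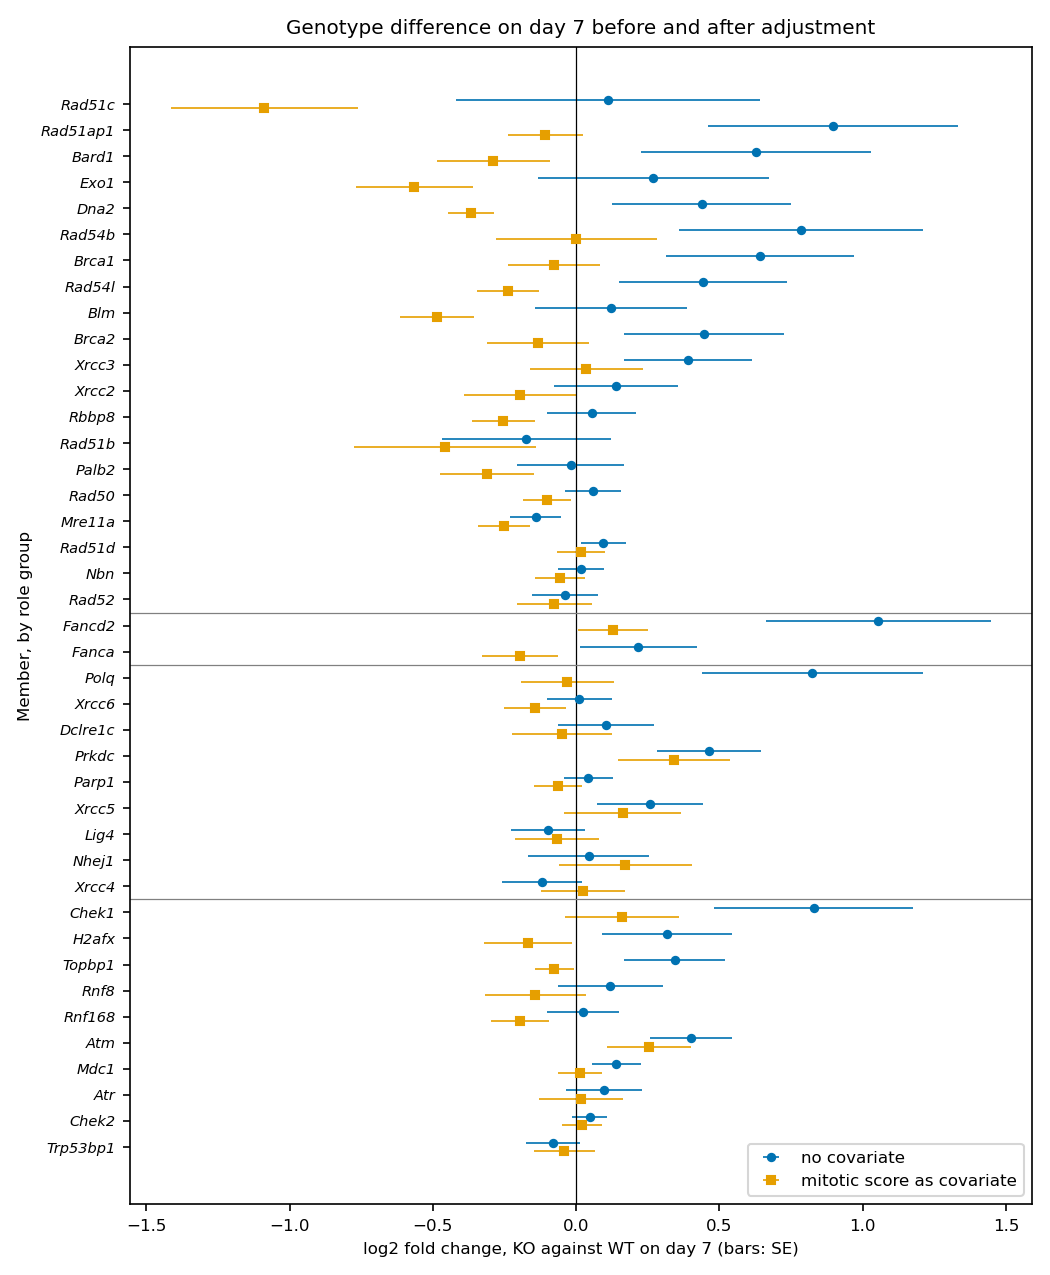
Points give the log2 fold change of KO against WT on day 7 with SE bars for 41 members, in role groups, without a covariate (circles) and with the mitotic score as a covariate (squares). Fancd2 moves from 1.05 to 0.13 and Polq from 0.82 to -0.03, while Blm and Dna2 end below 0 and Atm and Prkdc stay above it.

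On days 8, 9 and 10 no member passed either. Of 41 members 0 passed on each day in edgeR, where 0.00688%, 0.00688% and 0.0138% of all genes were called higher and 0% lower. DESeq2 also called 0 members, with 0.0895%, 0.523% and 0.206% of all genes higher and 0.0275%, 0.151% and 0.0895% lower, and limma on log2 TPM called 0, with 0.00688%, 0.00688% and 0.0688% higher and 0% lower. At an unadjusted p under 0.05 there were 0 higher (3.38% of all genes) and 1 lower (2.52%) on day 8, 2 (4.59%) and 0 (3.56%) on day 9, and 1 (3.74%) and 1 (3.56%) on day 10. Median log2 fold changes were 0.10, 0.05 and 0.09, with 31, 31 and 29 members above 0 (49.2%, 50.1% and 50.8% of all genes). The medians did not keep their direction, turning to -0.06 on day 8 and -0.08 on day 9 without mouse 67 and to -0.06 on day 10 without mouse 64. Without the libraries with high Ddx3y they were 0.18, 0.25 and 0.24, and at an unadjusted p under 0.05 there were 12 higher (7.64% of all genes) and 1 lower (6.13%) on day 8, 5 (7.82%) and 0 (6.85%) on day 9, and 10 (5.77%) and 1 (6.77%) on day 10. KO lay above WT without overlap for 2, 5 and 2 members (4.4%, 7.62% and 5.47% of all genes) and below it for 2 on each day (4.99%, 6.47% and 4.97%). Some marker sums also separated: mast cell or basophil sums on day 9 (123 to 152 CPM in KO, 80.5 to 103 in WT) and macrophage sums on day 10 (1937 to 2301 and 1821 to 1860 CPM). Their part in these differences was not tested.

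On day 8 Rad51b was lower in KO, at 0.735, 0.436 and 0.423 CPM against 1.08, 0.957 and 1.36 CPM in WT (-1.08, SE 0.32, edgeR adjusted p = 0.54). On day 9 Atm was higher, at 24.2, 28.7 and 24.7 CPM against 22.1, 17.7 and 22.3 CPM (0.32, SE 0.14, edgeR adjusted p = 0.54). These 2 pairs of groups did not overlap, and neither difference passed. The Ku genes separated in opposite directions on day 9, Xrcc6 with 0.30 (SE 0.11, edgeR adjusted p = 0.42) and Xrcc5 with -0.34. On day 10 Trp53bp1, the adaptor that restrains resection, was at 31.7, 31.2 and 28.5 CPM in KO against 27.2, 25.9 and 24.6 CPM in WT (0.23, SE 0.09, edgeR adjusted p = 0.57). Chek2 was at 27.2, 24.1 and 26.9 CPM against 28.6, 28.8 and 29.0 CPM (-0.14, SE 0.06, edgeR adjusted p = 0.58).

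The change from day 7 to day 10 was also compared between genotypes. In this interaction 0 members passed in edgeR, DESeq2 or limma on log2 TPM (0.0619% of all genes higher and 0% lower in edgeR), with 1 higher (Trp53bp1, 0.32) and 1 lower (Chek2, -0.19) at an unadjusted p under 0.05 (3.35% and 2.96% of all genes). The interaction value was above 0 for 12 of 41 members (50.9% of all genes), with a median of -0.11 against 0.00. This median turned to 0.05 without mouse 67, was -0.24 without mouse 64 and -0.03 without the libraries with high Ddx3y, and turned to 0.16 with the mitotic score and 0.09 with the S phase score as a covariate. The 25 mitosis genes had a median of -0.96, with 0 of 25 called and 7 lower at an unadjusted p under 0.05 (2.96% of all genes). With the mitotic score as a covariate 1 member, Dna2, was called, with an interaction of 0.47 (SE 0.11, edgeR adjusted p = 0.044, where 0.42% of all genes were called higher). Its adjusted change was -0.74 in WT (called) and -0.26 in KO (not called), so the value in KO was the less negative.

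Other genes of the same pathways, 51 that were not among the members, were counted beside them. From day 7 to day 10, 26 rose and 3 fell in WT (18.9% and 18.1% of all genes), and 30 rose and 4 fell in KO (19.7% and 17.1%). Rmi2, a partner of Blm, rose most (3.06 in WT and 2.58 in KO), and Fance, a Fanconi subunit, fell most (-0.56 and -0.53). In KO against WT on day 7, 1 of the 51 was called, where 0.832% of all genes were called higher and 0.619% lower. It was Rnf169 (0.30, SE 0.08, edgeR adjusted p = 0.049), a ligase-family protein that binds break sites. A count of 1 in 51 is near the share of all genes. On the mitotic score 21 had a called slope above 0 (17.3% of all genes) and 1 below 0 (15.6%).

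On the deposited TPM scale, which corrects for transcript length and so lets genes be compared with each other, H2afx was the most abundant member in WT on day 10, at 152 ± 23.8 TPM (SD, n = 3). Parp1 followed with 55.9 ± 2.64 TPM, Dna2 with 37.9 ± 3.87 TPM, Chek2 with 31.0 ± 1.02 TPM and Topbp1 with 28.7 ± 3.56 TPM, and the last pair lay within their spread of each other. Brca1 (9.31 TPM) and Rad51ap1 (10.6 TPM) stood in the middle, and Brca2 (2.59 TPM), Rad51c (2.08 TPM), Rad51b (1.90 TPM) and Rnf8 (0.753 TPM) at the end. On day 7 the order at the top was H2afx with 56.0 TPM, Parp1 with 41.7 TPM and Chek2 with 19.4 TPM, and Exo1 (0.460 TPM) and Rad54b (0.330 TPM) were the scarcest members.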

How the data were processed

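Messenger RNA of 24 cultures (8 groups of 3) was sequenced. The authors deposited raw gene counts and TPM values. Per the submitters' processing notes the tools included FastQC 0.11.9, STAR 2.6.1 and DESeq2 1.22.2 with the mm10 genome, with no role given. The counter, strand setting and annotation are not given in the sources used here. The labels name 2 kits, both keeping strand, but do not tie either to a library, and no batch term was fitted.

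Genes were filtered with filterByExpr over the 8 groups (14535 of 55487 genes kept, 28655 having any count), scaled with TMM and tested with edgeR 4.0.16 (R 4.3.3): quasi-likelihood, 1 coefficient per group, all 24 libraries, 16 residual degrees of freedom (15 with a score), Benjamini-Hochberg adjustment over all genes, threshold 0.05. CPM used TMM-scaled totals, and scores were means of log2 CPM (prior count 2). TPM was tested as log2(TPM + 1) with limma 3.58.1, and DESeq2 1.42.0 was a further alternative. The fits were tested on simulated data. Gene positions are from GENCODE M21, in which 55094 identifiers had the same version. Depth was 19952047 to 31049798 counts, and standard errors cover the spread between libraries only.

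The labels give each library a mouse number that recurs over days. Deviations from group means of the same WT mouse on different days correlated (mean r 0.359 over 18 pairs, lowest 0.0148, across 11002 genes, which are not independent). Those of KO numbers did not (mean 0.00567, from -0.785 to 0.782), and Ddx3y placed some KO numbers on different animals. The unblocked fit is therefore the main one.

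The members and lists were chosen with earlier results of these data known. Members named in full were 20 representatives of the roles, up to 5 per direction with the largest called change in each comparison, and, where none was called, up to 2 per direction whose groups did not overlap. Others are named where a count or sentence needs them and were chosen after their values were seen.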

Additional observations from a re-analysis of the deposited data

Results flagged for a closer look

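Mre11a and Chek2 separated the genotypes without overlap in opposite directions on different days. Mre11a was lower in all 3 KO libraries on day 7 (log2 fold change -0.14) and higher in all 3 on day 9 (0.12). The difference between these days was 0.26 (SE 0.13, unadjusted p = 0.051 and adjusted p = 1.00 in edgeR). Chek2 was lower in KO on day 8 (-0.12), higher on day 9 (0.0466) and lower on day 10 (-0.14). Day 9 differed from day 8 by 0.17 (SE 0.09, unadjusted p = 0.061 in edgeR) and from day 10 by 0.19 (SE 0.08, unadjusted p = 0.035 in edgeR), and both adjusted p-values were 1.00. No genotype difference of either gene passed on any day. These day contrasts were run only for members already seen to separate in both directions, so their p-values are no test of that pattern. Of all genes, 14.2% lay lower without overlap on day 7, 4.99% on day 8 and 4.97% on day 10, and 7.62% lay higher on day 9. The share of all genes that separate in both directions was not counted.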

How the results depend on the processing

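Of 50 gene results, 19 kept their direction and side of the threshold in all 16 alternatives and 7 turned direction in at least 1. KO against WT called 0 members on each day, and 0 in the interaction, under every alternative but the score and Ddx3y settings given here. With the mitotic score as a covariate the calls became 2 for KO against WT on day 7 (4.02% of all genes), 10 for WT day 8 against 7 (42.8%), 4 for WT day 10 against 8 (19.9%), 4 for WT day 10 against 7 (13.5%), 20 for KO day 8 against 7 (48.4%), 3 for KO day 10 against 8 (19.9%), 5 for KO day 10 against 7 (18.8%) and 1 for the interaction (0.819%). With the S phase score they became 10, 7 and 4 for WT day 8 against 7, day 10 against 8 and day 10 against 7 (39.8%, 22% and 13.6%), and 3 and 2 for KO day 10 against 8 and 7 (20.3% and 17.1%). Without the libraries with high Ddx3y, an alternative chosen after seeing the data, 1 member was called in KO against WT on day 7 (2.22%) and 14 on the slope (9.37%). Fitting only the groups compared left 1 call for KO day 10 against 8 (2.46%). In WT that fit gave 23, 23 and 29 calls for day 8 against 7, 10 against 8 and 10 against 7 (56.2%, 35.3% and 41.2%). In KO it gave 8 and 19 for day 8 against 7 and 10 against 7 (34% and 24.6%). The causes of these shifts were not tested.

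Leaving out 1 mouse gave 6 to 22 calls for WT day 8 against 7 (30.3% and 47.6% of all genes in those fits), 9 to 24 for WT day 10 against 8 (14.5% or 18.1%, and 35.6%), 3 to 28 for KO day 10 against 8 (8.67% and 34.1%), 15 to 28 for KO day 10 against 7 (21.9% and 39.6%) and 15 to 25 for the slope (6.95% and 31.9%). The KO change from day 7 to day 10 ranged from 0.738 to 1.33 for recombination genes and from 0.939 to 1.70 for Fanconi genes.

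Direction turned with the mitotic score for Rad51c (-0.55) and Rad51ap1 (-0.22) in WT day 10 against 8, Fancd2 (-0.0548) in WT day 10 against 7, and Rad51c (-0.27) and Bard1 (-0.0336) in KO day 10 against 8. It turned with the S phase score for Rad51ap1 (-0.0127) in WT day 8 against 7, Rad51c (-0.0903) in WT day 10 against 8, Fancd2 (-0.0601) in WT day 10 against 7 and Rad51c (-0.14) in KO day 10 against 8. Chek2 in KO day 8 against 7 turned on TPM (0.0328).

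With mouse number as a replicate block in limma voom (consensus correlation 0.00464), WT day 8 against 7 called 11 members (42.2% of all genes), day 10 against 8 called 20 (30.8%) and day 10 against 7 called 22 (36.8%). In KO these counts were 11, 19 and 25 (40.9%, 25.9% and 37.3%), and the slope was called for 26 (35.3%). With the block for WT mice alone (correlation 0.195) the WT counts were 15, 22 and 28 (47.1%, 36.6% and 42.3%). Neither block moved a count of calls by over 1.5 times, but Rad51ap1, Polq and Rad54b lost their WT day 8 calls and Chek1 its KO day 8 call under the mouse block. Rad51c and Rad51b, with few counts, are the least precise.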
